A study of Mus musculus with 18 samples.

Results

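The control line of the study, 7 days after irradiation, was compared with the same line before irradiation. M12-5B3 is a p53-deficient mouse B lymphoma line with features of germinal centre B cells, the stage at which B cells divide fast and edit their antibody genes. The study irradiated it with and without knockdown of the transcription factors USF1 and USF2 and profiled RNA on Affymetrix Mouse Transcriptome 1.0 arrays, 18 in all and 3 per group. The members described here are the 3 arrays labelled as untreated control (sshRNA no IR) and the 3 labelled as irradiated control after 7 days (sshRNA 7d IR), 6 of the 18 arrays, with all 65956 transcript clusters, the probe sets that each follow one transcribed locus. Both groups carry a scrambled shRNA delivered by lentivirus and selected as puromycin-resistant clones, and the tetracycline-inducible RAG1 and GFP-RAG2 transgenes of the parental line, which tetracycline kept silent. The sshRNA 7d IR cells received a single dose of 5 Gy from a cobalt-60 source, were put into fresh medium and grew for 7 days before harvest, whereas the sshRNA no IR cells received no dose. No untreated group was grown for 7 days, so irradiation and time in culture cannot be told apart, nor can any array batch that followed the groups, of which the sources used here give none. The study speaks of independent replicates, of cultures and of clones without saying which of these differed between the arrays of a group, and p-values measure only the spread between these arrays. For genes with 1 symbol the brightest cluster stood for the gene, which gave 30098 genes.

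Ionizing radiation breaks both strands of DNA. Cells answer by halting the cell cycle at checkpoints that kinases of the ATM and ATR family enforce, by repairing the breaks, and, where p53 works, by switching on p53 target genes that arrest or kill the cell. A B cell line without p53 lacks that arm, and cells harvested days after a dose are those that survived it and their daughters.

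The 7-day arrays stood apart in the negative control rows, and this bears on every increase below. These rows were not dark: transcript clusters had medians of 4.32 to 4.37 on the sshRNA no IR arrays, below the negative control medians given next. Whether cell RNA adds to the negative control rows was not tested. Over the 5222 negative control rows the median deposited log2 value was 5.02, 4.95 and 4.93 on the sshRNA no IR arrays and 5.67, 5.5 and 5.46 on the sshRNA 7d IR arrays, so the groups did not overlap. Of these rows 1207 (23.1%) were called higher at 7 days and 31 (0.594%) lower, and the median log2 difference was 0.587. Brighter negative control rows shifted further, from a median of 0.26 for those with a mean of 2 to 3 to 1.3 for those above 8. Transcript clusters of like level did not follow: their medians were 0.16 at 2 to 3, 0.14 at 6 to 7 and 0.01 above 8. Whether genes carry the shift of the negative control rows was not tested. Spiked-in hybridization controls rose as well, from array means of 10.7 to 11 in sshRNA no IR to 11.6 to 11.8 in sshRNA 7d IR, while the positive control rows, which follow exons of housekeeping genes, had a median difference of -0.296. When the negative control medians of all arrays were set equal, every log2 fold change was lower by 0.58, and this setting is given below beside groups whose balance of increases and decreases it turns. Of the gene lists used below, the ribosomal proteins and the small nuclear and nucleolar RNAs were the ones with more increases than decreases in it. The genes called higher then numbered 866 in place of 2744 and the genes called lower 9887 in place of 2564.

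**Figure D1:**
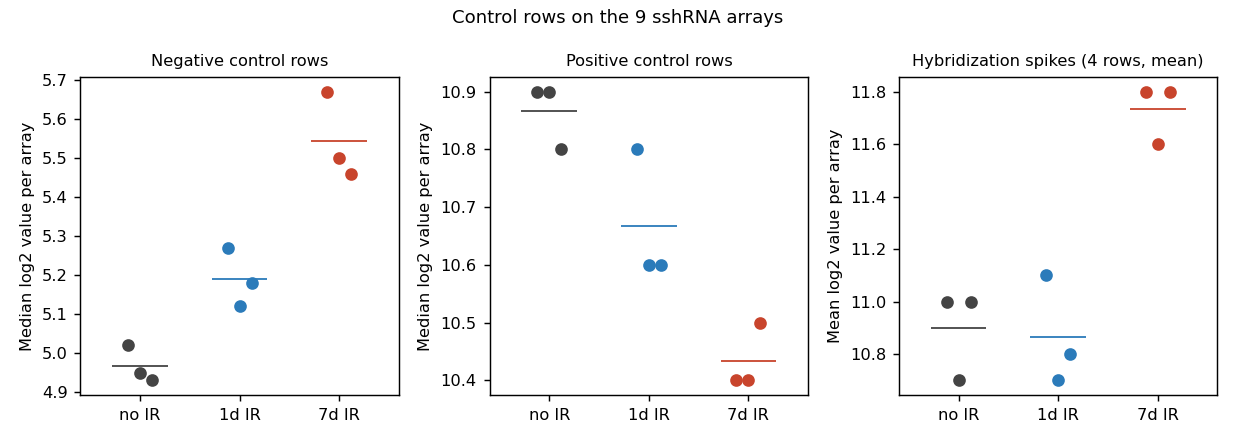
Control rows on the 9 sshRNA arrays: median log2 value of negative control rows, median of positive control rows and mean of 4 hybridization spikes, with 1 point per array and a line at each group mean (axes do not start at 0). The 7d IR arrays lie above the no IR arrays for negative control rows (5.46 to 5.67 against 4.93 to 5.02) and spikes, and below them for positive control rows.

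A gene was called where the adjusted p from limma fell below 0.05 and the change exceeded 1.5-fold. By that rule 2744 genes (9.12%) were higher and 2564 (8.52%) lower at 7 days. In 5259 of the 5308 called genes the 3 values of one group lay wholly above those of the other. Over all transcript clusters, 7571 (11.5%) were called higher and 3171 (4.81%) lower, and 4515 of the higher clusters carry no gene symbol against 436 of the lower ones. The median log2 fold change was 0.123 over all genes and 0.016 over the 16676 genes above the dim limit of 4.66, the level that 95% of odorant and pheromone receptor genes (Olfr, Vmn1r and Vmn2r), silent outside the nose, did not exceed. Under all 4 scalings tried (as deposited, cyclic loess, bright clusters centred, negative control medians equal), 866 genes were called higher and 2519 lower. The other 3 scalings lowered the median log2 fold change over all genes, from 0.12 to -0.05, -0.05 and -0.45. They could thus end increases far more readily than decreases, and the last of them alone gave the same 866. Of the 866 genes that stayed higher 101 were protein-coding, against 1977 of the 2519 that stayed lower. These counts therefore do not weigh increases against decreases.

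As deposited, protein-coding genes were called lower more often than higher and short noncoding RNAs higher more often than lower, though the balance of microRNA loci turned with the negative control medians equal. Of 19091 protein-coding genes 664 (3.48%) were called higher and 2013 (10.5%) lower, and among the 10743 of them above the dim limit the shares were 5.75% and 18.7%. Of 915 small nuclear RNA (snRNA) loci 561 (61.3%) were higher and 1 lower, of 955 small nucleolar RNA (snoRNA) loci 330 (34.6%) were higher and 1 lower, and of 607 microRNA loci 165 (27.2%) were higher and 1 lower. Of 3198 long noncoding RNAs 155 were higher and 21 lower. Under equal negative control medians the snRNA loci split into 338 higher and 45 lower, the snoRNA loci into 116 and 108, the microRNA loci into 30 and 84 and the protein-coding genes into 101 and 7155. Many loci of these classes are near-identical copies whose probes cannot separate them, and the 915 snRNA loci hold 843 distinct rows of values.

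**Figure D2:**
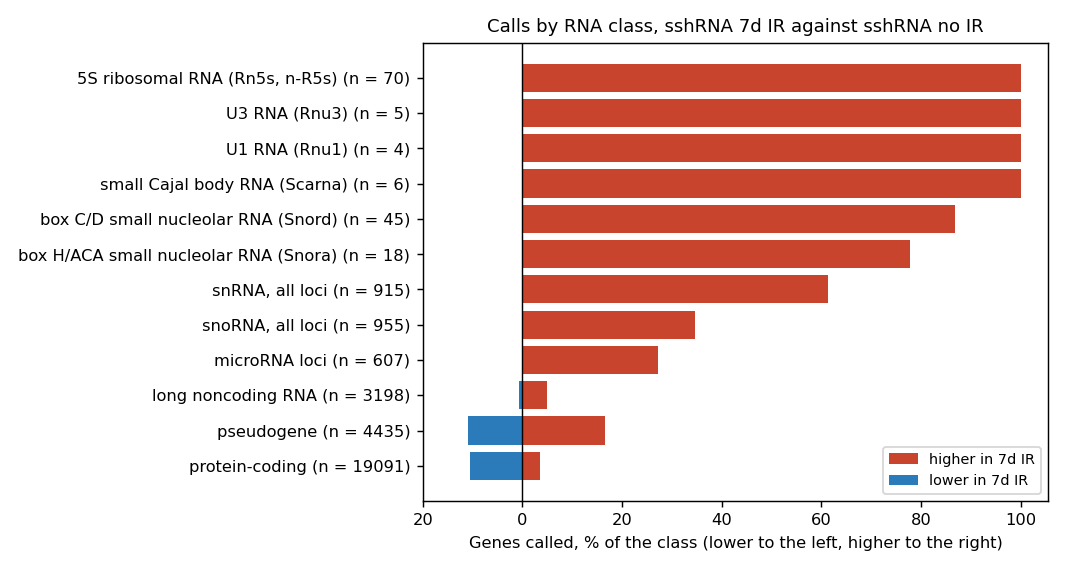
Share of the genes of each RNA class called higher (right, red) or lower (left, blue) in sshRNA 7d IR than in sshRNA no IR, in percent of the class, with the number of loci in brackets. All 70 loci of 5S ribosomal RNA were called higher, while protein-coding genes were called lower more often (10.5%) than higher (3.48%).

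Short RNAs that build or modify ribosomes and splicing particles were among the steepest increases, with snoRNA loci at the top and 5S ribosomal RNA loci among the 15 largest. The RNA was bound to columns that retain short RNAs poorly. The part of this step in the short RNA values above and below was not tested. The 5S ribosomal RNA, made by RNA polymerase III and built into the large ribosomal subunit, was called higher at all 70 of its loci (37 distinct rows, median log2 fold change 3.4, range 0.89 to 4.39). Rn5s read 13.78, 14.84 and 15.01 in sshRNA no IR and 17.92, 18.37 and 18.22 in sshRNA 7d IR, an increase of 3.63 ± 0.4 (limma standard error here and below, 3 against 3 arrays; adjusted p = 1.05e-05). Replicate 1 lay below the other untreated arrays, yet all irradiated arrays lay above all untreated ones. When the negative control medians were equal, 67 of the 70 loci were still called higher.

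U1 RNA, which pairs with the 5′ splice site of a pre-mRNA, was called higher at all 4 of its loci (median 2.34), and U3 RNA, a snoRNA that guides cleavage of the ribosomal RNA precursor, at all 5 (median 3.76). Rnu3b4 read 11.81, 12.22 and 12.08 without irradiation and 15.99, 15.77 and 15.77 at 7 days (3.81 ± 0.2, adjusted p = 3.85e-08). These 9 calls held under each of the 4 scalings. Rnu6 (U6 RNA) rose by 1.25 ± 0.2, while Rnu2-10 (U2 RNA, 0.32 ± 0.24) and Rnu5g (U5 RNA, -0.46 ± 0.28) did not pass the test, so the spliceosomal RNAs were not called together.

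Small nucleolar RNAs guide chemical marks onto ribosomal RNA, box C/D members for methylation and box H/ACA members for pseudouridine, and those of the Cajal body (Scarna) do the same for spliceosomal RNAs. Of 45 named box C/D loci (Snord) 39 were higher and 0 lower (median 1.75), of 18 box H/ACA loci (Snora) 14 were higher and 0 lower (median 1.47), and all 6 Scarna loci were higher (median 1.86). Under equal negative control medians the counts were 27 higher and 1 lower, 11 and 0, and 5 and 0. Snord104 had the steepest rise among them, from 13.07, 13.31 and 13.33 to 18.33, 18.08 and 18.3 (5 ± 0.17, adjusted p = 1.52e-09). Scarna17 rose by 4.09 ± 0.26, Snord71 by 3.95 ± 0.29, Snora73b by 3.65 ± 0.29, Snora62 by 3.36 ± 0.23 and Snora31 by 3.08 ± 0.33. The largest rise over all genes was at Gm25788, a snoRNA locus known by its serial name only (10.69, 10.71 and 10.84 against 16.65, 16.58 and 16.13, 5.7 ± 0.43).

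Not all short or structural RNAs moved this way. Whether RNA length, which bears on column retention, set them apart from those that rose was not tested. Rn7sk, the RNA that holds the elongation factor P-TEFb inactive, read -0.32 ± 0.06, and Rn7s1, the RNA of the signal recognition particle, -0.16 ± 0.07, neither past the fold limit. Rmrp (0.36 ± 0.15), Rpph1 (0.41 ± 0.17), Rny1 (-0.19 ± 0.3) and Rny3 (-0.42 ± 0.26) did not pass the test either. Several of these are among the brightest rows of the arrays, with Rn7sk above 19. In all, 1339 rows passed 16 on at least 1 array, the log2 ceiling of a 16-bit scanner for a single probe, and how the summary step reached such values is not given in the sources used here, so folds and missing changes at that level (Rn7sk, Rn5s, Snord104, ND6) carry that doubt. Rn4.5s, a rodent-specific RNA, fell by 1.47 (± 0.38, adjusted p = 0.00783), from 16.38, 16.29 and 16.3 to 14.6, 14.61 and 15.34. Among longer nuclear RNAs, Malat1 and Neat1, which mark nuclear speckles and form paraspeckles, rose by 2.03 ± 0.3 and 1.92 ± 0.22, and Terc, the RNA template of telomerase, by 1.35 ± 0.13, and these calls held under each of the 4 scalings.

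MicroRNAs repress mRNAs that pair with their seed, bases 2 to 8. For 494 of the 607 microRNA loci RefSeq (GRCm38.p6) gives a mature sequence, and 10 seeds are shared by at least 4 measured loci. The let-7 seed and the miR-15/16 seed are shown because these families are textbook brakes on growth and division and their 5′ arms held the most called loci among the shared seeds. The seed is in capitals, and the sequences read 5′ to 3′.
let-7d (chr13:48536078-48536099): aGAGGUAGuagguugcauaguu
let-7f (chr13:48537889-48537910): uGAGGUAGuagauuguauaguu
miR-98 (chrX:151913229-151913250): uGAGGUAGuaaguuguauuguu
let-7g (chr9:106178846-106178867): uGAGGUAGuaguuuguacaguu
miR-15b (chr3:69009775-69009796): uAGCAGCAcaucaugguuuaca
miR-15a (chr14:61632075-61632096): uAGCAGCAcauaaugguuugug
miR-16 (chr3:69009918-69009939): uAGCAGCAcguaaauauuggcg
miR-497a (chr11:70234730-70234751): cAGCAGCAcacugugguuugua
Of 12 loci with the let-7 seed 6 were higher and 0 lower (median 0.58, against 0.34 over all microRNA loci). Over all 607 microRNA loci 27.2% were higher. Both families were chosen in part for their called loci, so their counts are no test. Mirlet7d read 7.84, 7.91 and 7.71 without irradiation and 10.66, 10.31 and 10.41 at 7 days (2.64 ± 0.15, adjusted p = 4.87e-08), Mirlet7f-1, its neighbour on chromosome 13, rose by 2.07 ± 0.28 and Mir98 by 1.73 ± 0.15. Mirlet7g, which shares the seed, read 0.19 ± 0.14 and was not called. Of 4 loci with the miR-15/16 seed 3 were higher (median 1.25). They were Mir15b, from 4.75, 4.8 and 5.53 to 6.66, 6.99 and 6.44 (1.67 ± 0.3), Mir15a (1.38 ± 0.22) and Mir16-2 (1.12 ± 0.37), while Mir497, on chromosome 11, read 0.31. When the negative control medians were equal, Mirlet7d, Mirlet7f-1, Mir98, Mir15a and Mir15b were still called, and Mir16-2, Mirlet7a-1, Mirlet7f-2 and Mirlet7i were not. These last loci but Mir16-2 lay under the dim limit of 4.66 in at least the untreated group. The array rows do not separate a mature microRNA from its precursor or from the transcript it is cut from.

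Among protein-coding genes the steepest increase was that of ND6, a complex I subunit encoded by the mitochondrial genome, from 13.58, 13.54 and 13.93 to 16.99, 17.03 and 16.88 (3.28 ± 0.18, adjusted p = 4.38e-08). The other measured mitochondrial genes did not follow it: ND2 read 0.42 ± 0.15, ND3 0.05 ± 0.07, COX1 -0.55 ± 0.15, COX2 -0.2 ± 0.06 and mt-Rnr1 -0.58 ± 0.07. ND6 is the protein gene read from the light strand of that genome, and these other genes are read from the heavy strand. Whether the probe sets kept the strands apart was not tested.

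Next came Ddit3 (CHOP), a transcription factor of the stress response, which rose 8.35-fold from 8.38, 8.28 and 8.13 to 11.12, 11.52 and 11.33 (3.06 ± 0.37, adjusted p = 1.97e-05). Klhl24, an adaptor of a ubiquitin ligase, rose by 2.83 ± 0.29. Cd69, an early activation antigen that keeps lymphocytes in tissue, went from 9.74, 9.58 and 9.69 to 12.11, 12.34 and 11.97 (2.47 ± 0.3). Adm, the peptide hormone adrenomedullin, rose by 2.4 ± 0.21, and Rgs1, which dampens signals from chemokine receptors, by 2.4 ± 0.19. Further increases were those of the annexin gene Anxa10 (2.39 ± 0.22), the translation regulator gene Cpeb2 (2.3 ± 0.18), the ribosomal protein paralogue gene Rpl22l1 (2.24 ± 0.21), the corepressor gene Irf2bp2 (2.22 ± 0.22) and Sat1 (2.03 ± 0.2), whose enzyme breaks down polyamines. Cxcr4, the receptor that holds germinal centre B cells in the dark zone, rose from 12.02, 11.86 and 11.71 to 13.82, 13.87 and 13.8 (1.97 ± 0.35). All of these genes were called under each of the 4 scalings.

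The steepest decreases among protein-coding genes were in genes of varied function. Upk1b, a tetraspanin of the urothelium, fell 14.4-fold, from 13.07, 13.04 and 12.93 to 9.39, 8.73 and 9.38 (-3.84 ± 0.18, adjusted p = 2.85e-08), and the serine protease gene Prss42 fell 13.4-fold (-3.74 ± 0.21). Gm11295, a gene with a serial name only, fell by 4 (± 0.19). Derl3, a factor that draws misfolded proteins out of the endoplasmic reticulum (ER), went from 9.27, 9.37 and 9.16 to 5.98, 5.98 and 6.3 (-3.18 ± 0.16), and the groups lay more than 2 units apart for each of these genes. Further decreases were those of the membrane remodelling gene Ehd2 (-2.78 ± 0.22), the progranulin gene Grn (-2.68 ± 0.18), the tubulin gene Tuba4a (-2.57 ± 0.28) and Dusp6, a phosphatase that switches ERK off (-2.48 ± 0.17). Slc7a8, an amino acid transporter gene, fell from 8.69, 8.48 and 8.43 to 6.08, 6.12 and 6.14 (-2.42 ± 0.11).

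Genes of cell division were lower at 7 days. Of 63 mitosis and kinetochore genes 38 (60.3%) fell and 0 rose, with a median of -0.69, against 18.7% lower among protein-coding genes above the dim limit. Plk1, the kinase that drives entry into mitosis and spindle assembly, read 14.77, 14.7 and 14.6 without irradiation and 12.31, 12.4 and 12.75 at 7 days, a 4.62-fold decrease (-2.21 ± 0.26, adjusted p = 1.94e-05). Mybl2, which activates late cell cycle genes, fell from 11.06, 11.32 and 11.22 to 8.92, 8.78 and 9.16 (-2.25 ± 0.19). Cenpe, the kinetochore motor, fell by 1.97 (± 0.19), Kif20a, a motor of cytokinesis, by 1.75 (± 0.13), and Mki67, whose protein marks cycling cells, by 1.63 (± 0.14), with no overlap between the groups. Cdk1 (-0.48), Aurka (-0.48) and Birc5 (-0.43) were not called. Under the other 3 scalings 38 to 57 of the 63 genes were lower and 0 higher. These scalings lowered the median fold change over all genes, so they could hardly end decreases and do not test them.

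The promoters of many such genes carry the cell cycle genes homology region (CHR) and CCAAT boxes, bound by the DREAM complex and by NF-Y. The Plk1 window of 300 bases (RefSeq, GRCm38.p6, chr7:122159185-122159484, plus strand, 250 bases before to 50 after the transcript start) is shown as the example, with CHR letters (TTTGAA or TTTAAA) and CCAAT in capitals.
Plk1: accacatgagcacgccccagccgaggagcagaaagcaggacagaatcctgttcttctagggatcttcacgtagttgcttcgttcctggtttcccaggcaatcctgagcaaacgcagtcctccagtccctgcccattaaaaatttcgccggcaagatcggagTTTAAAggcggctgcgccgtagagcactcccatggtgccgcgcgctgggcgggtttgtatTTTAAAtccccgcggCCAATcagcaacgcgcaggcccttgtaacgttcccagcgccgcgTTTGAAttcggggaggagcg
Counted with the first transcribed base as 1, the CHR letters start at -89, -29 and 31 and the CCAAT box at -14. Of the 32 mitosis genes that fell and have a window, 25 (78.1%) held CHR letters on either strand, as did 38 of all 54 mitosis genes with a window (70.4%), against 4270 of 15469 measured protein-coding genes (27.6%). Over all called lower genes the share was 23.7%. These shares describe letters, and a match is not a binding site.

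**Figure D3:**
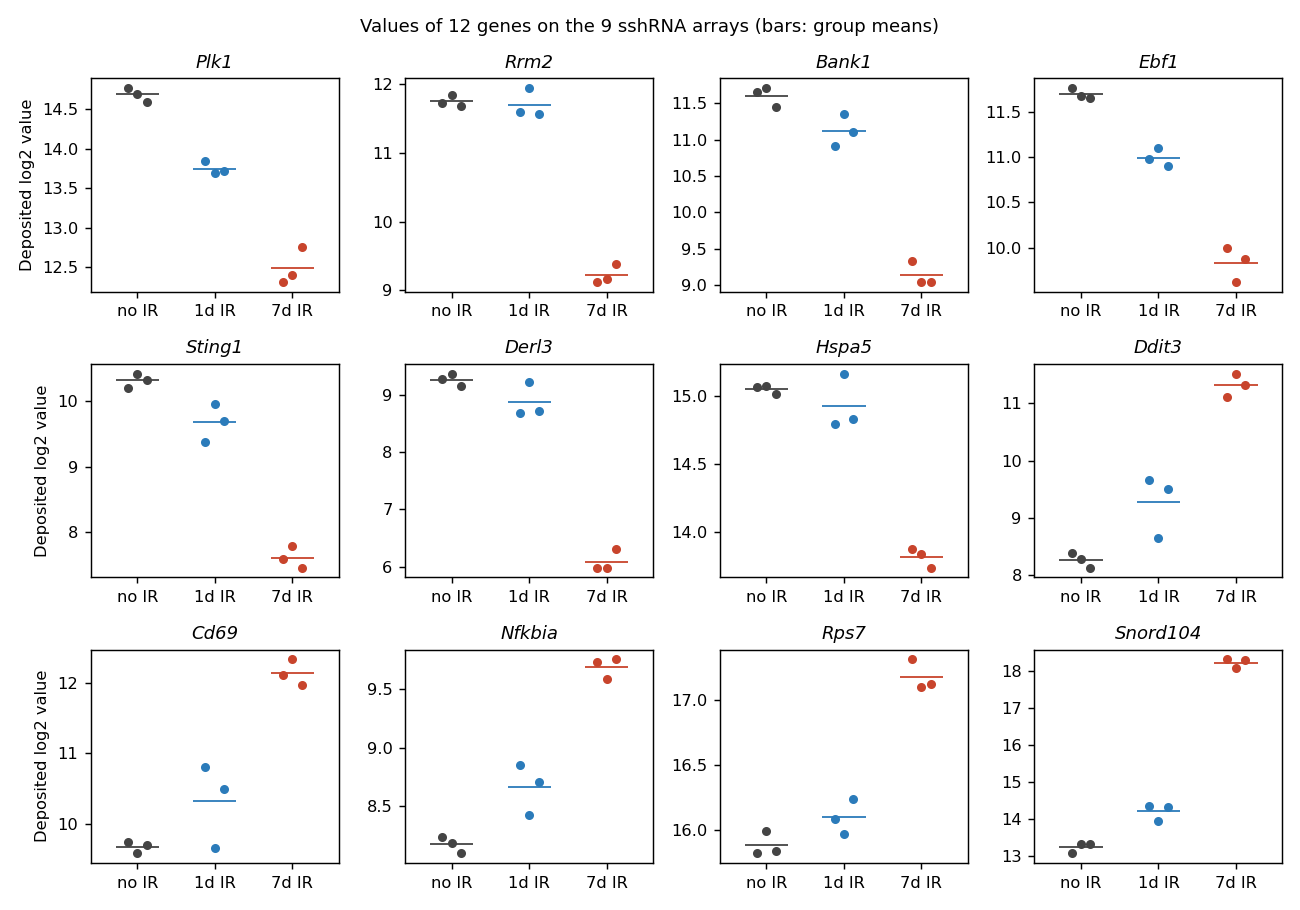
Deposited log2 values of 12 genes on the 9 sshRNA arrays (no IR, 1d IR, 7d IR), 1 point per array with a bar at each group mean (axes do not start at 0). Plk1, Rrm2, Bank1, Ebf1, Sting1, Derl3 and Hspa5 were lower on all 3 7d IR arrays than on any no IR array, and Ddit3, Cd69, Nfkbia, Rps7 and Snord104 were higher.

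DNA replication genes fell as well: 24 of 52 (46.2%) were lower, against 18.7% of protein-coding genes above the dim limit. In this list 1 gene, Cdc7 (0.6), was higher, and the median was -0.54. Rrm2, the subunit that limits ribonucleotide reductase, fell most, from 11.73, 11.84 and 11.68 to 9.12, 9.16 and 9.38 (5.78-fold, -2.53 ± 0.15, adjusted p = 6.09e-08). Mcm5, part of the replicative helicase, fell from 13.22, 13.48 and 13.29 to 11.56, 11.49 and 11.76 (-1.73 ± 0.19). Mcm3 fell by 1.55 (± 0.17) and Pole2, a subunit of the leading strand polymerase, by 1.52 (± 0.13). Mcm4 (-1.44) and Mcm2 (-1.35) also fell, whereas Mcm6 (0.42) and Pcna (-0.29) were not called. Cdc7 was called under cyclic loess too, under neither of the other scalings, and not without sshRNA no IR replicate 1 (0.65, adjusted p = 0.0544).

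E2F factors switch on replication genes in late G1. Of the 21 replication genes that fell and have a window 9 (42.9%) held an E2F motif (TTTGGCGC, TTTCCCGC, TTTCGCGC or TTTGGCGG on either strand), as did 19 of all 43 (44.2%), against 553 of 15469 protein-coding genes (3.57%) and 7.77% of all those called lower. The Mcm5 window (RefSeq, GRCm38.p6, chr8:75109259-75109558, plus strand) is shown with E2F, CHR and CCAAT letters in capitals. The E2F letters occur on both strands and overlap, starting at -153 and -149.
Mcm5: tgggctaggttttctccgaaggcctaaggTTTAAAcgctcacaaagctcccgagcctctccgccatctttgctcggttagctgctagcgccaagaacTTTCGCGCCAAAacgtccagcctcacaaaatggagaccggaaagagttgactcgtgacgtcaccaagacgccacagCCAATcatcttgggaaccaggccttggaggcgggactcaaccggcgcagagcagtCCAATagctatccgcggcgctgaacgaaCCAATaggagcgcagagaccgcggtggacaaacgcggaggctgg

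Regulators of the G1 to S step were lower in 12 cases. Of 24 G1/S cyclins, kinases and E2F genes 12 (50%) fell, against 18.7% of protein-coding genes above the dim limit, and 1, Cks1b (0.62), rose. Skp2, which marks the CDK inhibitor p27 for destruction, fell by 1.43 (± 0.12), E2f3 by 1.3 (± 0.18), Cdk4 by 1.14 (± 0.14) and Ccne1 (cyclin E1) by 1.06 (± 0.14). Ccna2 (-0.57), Cdk2 (-0.46) and Ccnd3 (-0.42) were not called, and E2f1 (0.01) and Myc (0.41) were not either. Genes that hold cells in G1 went both ways, with 4 of 31 (12.9%) higher and 5 (16.1%) lower. Among protein-coding genes above the dim limit 5.75% were higher and 18.7% lower. With the negative control medians equal, 1 gene of this list was higher and 13 were lower. The antiproliferative gene Btg1 rose from 8.69, 8.56 and 8.54 to 10.23, 10.3 and 10.22 (1.65 ± 0.15), Rb1 rose by 0.71 ± 0.15, and E2f4, a repressor E2F, fell by 1.7 (± 0.21). Rb1 and Cks1b were not called with the negative control medians equal (0.14 and 0.04). Of the replication-dependent histone genes 2 of 23 were higher (H2ac18 and H1f2) and 2 lower (H2bc12 and H1f1) as deposited, and 3 of these 4 calls, all but H2ac18, ended when single arrays were left out. With the negative control medians equal the counts were 0 higher and 15 lower.

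Of 29 p53 target genes 4 rose (13.8%, against 5.75% of protein-coding genes above the dim limit) and 1 fell as deposited, and 2 were higher and 10 lower with the negative control medians equal. Cdkn1a, the CDK inhibitor p21, read 7.09, 7.3 and 7.23 without irradiation and 6.83, 6.64 and 6.87 at 7 days (-0.42 ± 0.25, adjusted p = 0.201), and Mdm2, the ligase that degrades p53, read -0.41 ± 0.15 (adjusted p = 0.0516). The genes that rose were Ddb2, which recognises damaged bases (7.61, 7.67 and 7.48 against 9.17, 9.27 and 9.09, 1.59 ± 0.29), Gadd45a (1.35 ± 0.21), Mdm4 (0.96) and Btg2 (0.7). The death receptor gene Fas fell by 0.64, a call that ended without sshRNA 7d IR replicate 3 (-0.38, adjusted p = 0.15). Fas was not called either when limma was fitted to the 6 arrays compared (adjusted p = 0.0977) or to the 9 sshRNA arrays (adjusted p = 0.0597). Ddb2 and Gadd45a were the genes still higher with the negative control medians equal. Of 21 senescence and lamina genes 1 rose, Nupr1 (0.74, not called under the other scalings), and 1 fell, the lamin gene Lmnb1 (-0.98), and the CDK inhibitor gene Cdkn2a read -0.15.

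Repair genes were counted by pathway, beside the 18.7% of protein-coding genes above the dim limit that were lower. Of 37 homologous recombination and Fanconi genes, which mend breaks from a sister chromatid and undo crosslinks, 13 (35.1%) fell and 0 rose (median -0.42). The resolvase gene Gen1 fell from 10.27, 10.2 and 10.04 to 8.22, 8.17 and 7.7 (-2.14 ± 0.13, adjusted p = 7.3e-08) and Xrcc3 by 1.88 (± 0.19), followed by Exo1 (-1.11), Fanca (-1.11), Fanci (-1.1) and Rad54l (-1.05). Of 13 genes of end joining, which needs no template, 2 (15.4%) fell, Poll (-0.75) and Xrcc1 (-0.73), and 0 rose. Prkdc read 0.19 and Lig4 -0.33. Checkpoint and break-site genes counted 9 (29%) lower of 31 and 1 higher, Abraxas1 (0.8). The decreases included the cohesin genes Smc3 (-1.42) and Smc1a (-1.32), the ubiquitin ligase gene Rnf168 (-1.14) and the kinase gene Chek1 (-0.85 ± 0.14). The kinase genes Atm (-0.18) and Atr (0.43) were not called. In excision and mismatch repair 4 of 37 genes rose and 4 fell as deposited, and 2 were higher and 18 lower with the negative control medians equal. Neil1, a glycosylase that removes oxidized bases, rose from 12.07, 12.2 and 11.92 to 13.63, 13.63 and 13.93 (1.66 ± 0.27), and Ercc3, a helicase of nucleotide excision repair, fell by 1.44.

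Genes that make ribosomes fell in 21 of 46 cases, whereas genes that form them rose in 22 of 30 as deposited and in 2 of 30 with the negative control medians equal. Of 46 genes for ribosome biogenesis and RNA polymerase I, 21 (45.7%) fell and 1 rose (median -0.55). Among protein-coding genes above the dim limit 18.7% were lower and 5.75% higher. Noc4l, which matures the small subunit, fell from 10.37, 10.44 and 10.3 to 8.67, 8.84 and 9.14 (-1.49 ± 0.17), Polr1b, the second largest subunit of RNA polymerase I, by 1.16 (± 0.16), and Pes1 (-1.11), Nop58 (-1.09) and Ubtf (-1.05) likewise. Polr1c, a subunit that RNA polymerase I shares with III, was the one that rose (1.2 ± 0.11). The cytosolic ribosomal protein genes, in contrast, counted 22 of 30 (73.3%) higher and 0 lower, with a median of 0.71 and a lowest value of 0.04. Rps7 rose from 15.82, 15.99 and 15.84 to 17.31, 17.1 and 17.12 (1.29 ± 0.11) and Rps20 by 1.18 ± 0.16. This count rested on the scaling: it was 20 under cyclic loess, 11 with bright clusters centred and 2, Rps7 and Rps20, with the negative control medians equal, with 0 lower under each. The decreases in ribosome biogenesis numbered 25 to 39 under the other scalings, which lowered the median fold change over all genes and so do not test decreases. Of the 19 biogenesis genes that fell and have a window, 8 (42.1%) held the E-box CACGTG, the letters that MYC and USF factors bind, as did 10 of all 41 (24.4%), 13.8% of all called lower genes and 28.6% of the replication genes that fell, against 9.21% of protein-coding genes.

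Splicing factors fell in 16 of 43 cases (37.2%) and rose in 3 (6.98%), with a median of -0.3. Among protein-coding genes above the dim limit 18.7% were lower and 5.75% higher. Sf3b3, of the U2 particle, read 13.76, 13.92 and 13.87 against 12.14, 12.08 and 12.29 (-1.68 ± 0.19), and U2af2 (-1.68), Ptbp1 (-1.68) and the SR protein genes Srsf6 (-1.41), Srsf2 (-1.28) and Srsf1 (-1.2) fell too. The 3 that rose were Clk1 (1.5 ± 0.25) and Clk4 (1.21), kinases that phosphorylate SR proteins, and Rbm39 (0.66), of which Rbm39 was not called with the negative control medians equal (0.08). Chromatin modifiers counted 12 lower (19%, near the 18.7% of protein-coding genes above the dim limit) and 1 higher of 63. The decreases included Ino80c (-1.74), the maintenance methylation genes Uhrf1 (-1.54) and Dnmt1 (-1.18), and Hdac1 (-1.5).

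Genes of the ER and of the unfolded protein response, the set of pathways that senses misfolded protein in the ER, went both ways. Of 32 genes 14 (43.8%) fell and 7 (21.9%) rose, against 18.7% and 5.75% of protein-coding genes above the dim limit. With the negative control medians equal 20 of the 32 were lower and 4 higher. Most genes that fell encode chaperones, disulfide isomerases and degradation factors of the ER. Beside Derl3, Sdf2l1 fell from 13.43, 13.32 and 13.49 to 10.97, 11.04 and 10.97 (-2.42 ± 0.32), Creld2 by 2.15, Hsp90b1 (GRP94) from 16.34, 16.34 and 16.31 to 14.55, 14.42 and 14.24 (-1.93 ± 0.17), and Hspa5 (BiP), the main chaperone of the ER, by 1.23 (± 0.15). Pdia3 (-1.83), Dnajb11 (-1.78), Pdia6 (-1.77), Syvn1 (-1.63), Hyou1 (-1.51), Dnajc3 (-1.35) and Calr (-1.33) fell with them. The genes that rose included Atf4 and genes known as its targets. Which kinase acted upstream of them was not tested. Besides Ddit3, Trib3 rose by 1.39 ± 0.24, the asparagine synthetase gene Asns from 13.35, 13.33 and 13.2 to 14.59, 14.7 and 14.66 (1.36 ± 0.14), Chac1 by 0.78 and Atf4 by 0.62 ± 0.18. Derl1 (1.25 ± 0.1) and Sel1l (0.65), which act in the export of misfolded proteins, rose as well. Ddit3, Trib3, Asns and Derl1 were also called with the negative control medians equal, and Chac1, Atf4 and Sel1l were not, nor did these 3 keep their calls when single arrays were left out. Xbp1 (0.13) and Herpud1 (0.55) were not called.

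All 13 of the ER genes that fell and have a window held CCAAT, as did 23 of all 29 (79.3%), against 42% of protein-coding genes. Of these 13 genes 8 (61.5%) held the ER stress response element, CCAAT, any 9 bases and CCACG, which 27 of 15469 windows (0.175%) held, and which was chosen after the values were seen. Of all 29 ER genes with a window 9 held it. The elements are shown because these genes share them, with CCAAT and CCACG in capitals, read on the strand that carries CCAAT (RefSeq, GRCm38.p6).
Derl3 (chr10:75893242-75893260): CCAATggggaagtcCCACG
Creld2 (chr15:88819520-88819538): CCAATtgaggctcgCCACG
Hsp90b1 (chr10:86705533-86705551): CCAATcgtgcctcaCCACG
Hsp90b1 (chr10:86705638-86705656): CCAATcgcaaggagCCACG
Pdia6 (chr12:17266491-17266509): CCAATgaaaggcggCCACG
Syvn1 (chr19:6046532-6046550): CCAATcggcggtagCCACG
Dnajc3 (chr14:118937827-118937845): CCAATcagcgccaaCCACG
Calr (chr8:84847075-84847093): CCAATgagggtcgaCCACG
Hspa5 (chr2:34772025-34772043): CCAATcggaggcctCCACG
Canx (chr11:50325800-50325818): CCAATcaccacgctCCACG
Canx (calnexin) holds the element and read -0.39, which was not called. None of the 543 called higher protein-coding genes with a window held it. The element is so rare over all windows (27 of 15469) that this count decides nothing.

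Some genes of B cell identity fell at 7 days. Of 23 B cell transcription factor genes 9 (39.1%) fell, against 18.7% of protein-coding genes above the dim limit, and 1, Usf2, rose (median -0.29). Ebf1, which specifies the B lineage, fell from 11.76, 11.67 and 11.65 to 10, 9.62 and 9.88 (3.62-fold, -1.86 ± 0.11, adjusted p = 5.83e-08), and Ikzf1 (Ikaros) from 14.88, 15.01 and 14.86 to 13.56, 13.56 and 13.62 (-1.34 ± 0.1). Spib (-1.06, a call that ended when any one of 5 arrays was left out), Tcf3 (-0.93), Pou2af1 (-0.88) and Pax5 (-0.81 ± 0.13), the keeper of B cell commitment, fell by less. Bcl6 (0.11), Irf8 (0.5) and Mef2c (-0.32) were not called. Of the defining B cell markers, Ebf1, Pax5 and Cd79a, a chain of the B cell receptor, fell, the last to 11.38, 11.3 and 11.76 (-0.82 ± 0.22), still far above the dim limit. The partner chain Cd79b (-0.49 ± 0.2) was not called, and Ms4a1 (CD20) read 12.58, 12.69 and 12.65 against 12.5, 12.51 and 12.23 (-0.23 ± 0.16). Of the marker lists for other cells, 0 of 15 T and NK cell, 0 of 14 myeloid and 0 of 8 erythroid and platelet genes were called, and 1 of 13 stromal, epithelial and endothelial genes, Pdgfrb, fell (-1.31).

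Several genes of B cell receptor signalling fell. Of 27 surface and signalling genes 13 (48.1%) fell, against 18.7% of protein-coding genes above the dim limit, and 2 rose (median -0.57). Bank1, an adaptor that links the receptor to calcium release, fell from 11.66, 11.71 and 11.45 to 9.33, 9.04 and 9.04 (5.54-fold, -2.47 ± 0.13). The negative regulators Inpp5d (SHIP1, -2.09 ± 0.17), Fcgr2b (the inhibitory Fc receptor, -1.87 ± 0.11) and Ptpn6 (SHP-1, -0.67) fell, and so did the activating kinase and lipase genes Btk (-1.3 ± 0.09) and Plcg2 (-1.28) and the tetraspanin gene Cd37 (-1.72 ± 0.19). Blk (-0.53), Syk (-0.57) and Blnk (0.04) were not called. Fcer2a (CD23, 1.02) and Cd40 (0.59) rose, though neither was called with the negative control medians equal. Germinal centre genes were mixed, with 3 of 20 higher and 4 (20%) lower, and 3 of the 20 lay under the dim limit in both groups. Over all protein-coding genes 10.5% were lower, and 18.7% of those above the dim limit.

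Genes of class II antigen presentation fell in 7 of 16 cases (43.8%, against 18.7% of protein-coding genes above the dim limit) and rose in 0 (median -0.41). They were the transactivator gene Ciita (9.72, 9.48 and 9.43 against 8.3, 8.06 and 8.46, -1.27 ± 0.13), the peptide exchange genes H2-DMb2 (-1.51 ± 0.14), H2-DMb1 (-1.18) and H2-DMa (-1.04), H2-Oa (-0.7), Ifi30 (-0.74) and the chain gene H2-Ab1 (-0.94 ± 0.15). The other chain genes H2-Aa (0.12 ± 0.16) and H2-Eb1 (0.44) were not called. For class I, the light chain gene B2m rose from 15.89, 15.95 and 15.75 to 17.08, 17.09 and 17.31 (1.3 ± 0.24), and H2-K1 (0.7) and H2-D1 (0.64) rose too, while the loading genes Tap1 (-0.65), Tap2 (-0.62), Erap1 (-1.04) and the immunoproteasome gene Psmb10 (-0.98) fell. Under equal negative control medians B2m was the one class I gene still higher.

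Several sensors of foreign or misplaced nucleic acid fell. Of 20 such genes, 5 of them under the dim limit in both groups, 7 (35%) fell and 1, Rnaseh2a (0.6), rose. Sting1, the adaptor that relays cytosolic DNA signals, fell from 10.2, 10.42 and 10.33 to 7.59, 7.79 and 7.46 (6.51-fold, -2.7 ± 0.2, adjusted p = 3.59e-07), and Tlr9, the endosomal receptor for unmethylated DNA, from 10.77, 10.69 and 10.5 to 8.1, 8.31 and 8.69 (-2.29 ± 0.16). Mavs, the mitochondrial adaptor for RNA sensing, fell by 1.57 (± 0.19) and Myd88 by 0.99, while Irf3 (-0.41) was not called and Cgas lay under the dim limit in both groups. Of 31 interferon-stimulated genes, 11 of them under the dim limit in both groups, 8 (25.8%) fell and 0 rose. Over all protein-coding genes 10.5% were lower, and 18.7% of those above the dim limit. The decreases were led by Gbp3 (-1.81 ± 0.1) and Gbp2, which was at least 2.92-fold lower since it lay under the dim limit at 7 days. Isg15 read -0.03, and the list median was -0.03.

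Several genes that start cell death from outside fell. Of 16 death receptor and necroptosis genes, 4 of them under the dim limit in both groups, 6 (37.5%) fell and 0 rose. Over all protein-coding genes 10.5% were lower, and 18.7% of those above the dim limit. The 6 were Ripk3, the kinase of necroptosis (12.03, 12.14 and 12.06 against 9.67, 9.65 and 9.54, -2.46 ± 0.17), Tnfsf10 (TRAIL, -1.61), Casp8 (-1.18 ± 0.24), Fadd (-0.96), Mlkl (-0.87) and Fas, whose call ended in several settings. In the BCL2 family, Bcl2l11 (BIM), which triggers mitochondrial death, rose from 7.68, 7.67 and 7.59 to 9.38, 9.23 and 9.38 (1.69 ± 0.17), whereas Mcl1 (-0.36), Bcl2 (-0.24) and Bbc3 (PUMA, 0.55) were not called.

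NF-kB genes counted 8 (36.4%) higher and 1 lower of 22 as deposited (median 0.17), against 5.75% higher among protein-coding genes above the dim limit. With the negative control medians equal 2 were higher, Nfkbia and Birc3, and 8 lower. Nfkbia, the inhibitor that NF-kB itself switches on, rose from 8.23, 8.18 and 8.09 to 9.74, 9.59 and 9.76 (1.53 ± 0.16), and Birc3, a survival gene of the pathway, by 1.32 ± 0.14. Nfkbie (0.87), Relb (0.7), Rel (0.68), Traf1 (0.67), Nfkb2 (0.61) and Bcl10 (0.6) rose by less, and Ikbkb, a kinase that frees NF-kB, fell by 0.99 (± 0.12). Among homing and costimulation genes 4 of 42 rose and 9 (21.4%) fell, and 12 of the 42 lay under the dim limit in both groups. Over all protein-coding genes 10.5% were lower, and 18.7% of those above the dim limit. The increases were Cd69, Cxcr4, Cd40 and Ccr7, which guides lymphocytes to lymph node T cell zones (1.26 ± 0.16), and the decreases included Slamf6 (-1.42), the integrin genes Itga4 (-1.26) and Itgal (-0.84), and Icam2 (-1.01).

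Cytoskeletal and metabolic lists are given beside the 18.7% of protein-coding genes above the dim limit that were lower. Of 25 tubulin and cytoskeleton genes 13 (52%) fell and 0 rose (median -0.63), with Tubb4b going from 12.03, 12.39 and 12.3 to 10.19, 10.21 and 10.33 (-1.99 ± 0.3) after Tuba4a. Catalase (Cat), which destroys hydrogen peroxide, fell from 13.81, 13.94 and 13.85 to 11.92, 11.44 and 12.02 (4.22-fold, -2.08 ± 0.14), as did the glutathione and thioredoxin genes Gclc (-1.21) and Txnrd1 (-1.07). Sqstm1 (p62), an autophagy receptor, rose by 1.22 ± 0.12, and the antioxidant list counted 5 higher and 9 (30%) lower of 30. The fatty acid elongase gene Elovl6 fell by 2.1 (± 0.12) and Fasn by 1.17 (± 0.27), with 9 of 29 lipid synthesis genes (31%) lower and 1 higher. The heat shock gene Hsph1 fell from 13.4, 13.6 and 13.49 to 11.32, 11.14 and 11.24 (-2.27 ± 0.19), with 6 of 30 chaperone genes (20%, near that share) lower and 3 higher. Of 34 proteasome genes 8 (23.5%) fell, among them the base ATPase genes Psmc4 (-1.17), Psmc1 (-1.02) and Psmc5 (-0.87), and 4 rose, led by Psmd8 (1.45).

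Nuclear genes of oxidative phosphorylation counted 16 (22.5%) higher and 5 (7.04%) lower of 71 as deposited (median 0.2). Among protein-coding genes above the dim limit 5.75% were higher and 18.7% lower. With the negative control medians equal 1 gene of the list, Ndufb11, was higher and 21 were lower. The list was led by Ndufb11 (1.29) of complex I, with Uqcrc1 (-1.29) of complex III at the other end. Mitochondrial ribosomal protein genes counted 10 (15.2%) higher and 9 (13.6%) lower of 66 as deposited, 4 and 12 with bright clusters centred, and 0 and 25 with the negative control medians equal. Of 31 glycolysis and hypoxia genes 5 (16.1%) fell, among them Pkm (-1.39) and the glucose transporter gene Slc2a1 (-1.07), and 3 rose, Adm, Ndrg1 (1.09) and Ero1a (0.85), of which Adm alone was called with the negative control medians equal. Vegfa (0.2) and Ldha (-0.31) were not called. Of 51 lysosome, cathepsin and autophagy genes 7 (13.7%) fell, led by Grn, Ctse (-2.28) and Tpp1 (-2.08), and 5 rose, while 26 were lower and 1 higher with the negative control medians equal.

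**Figure D4:**
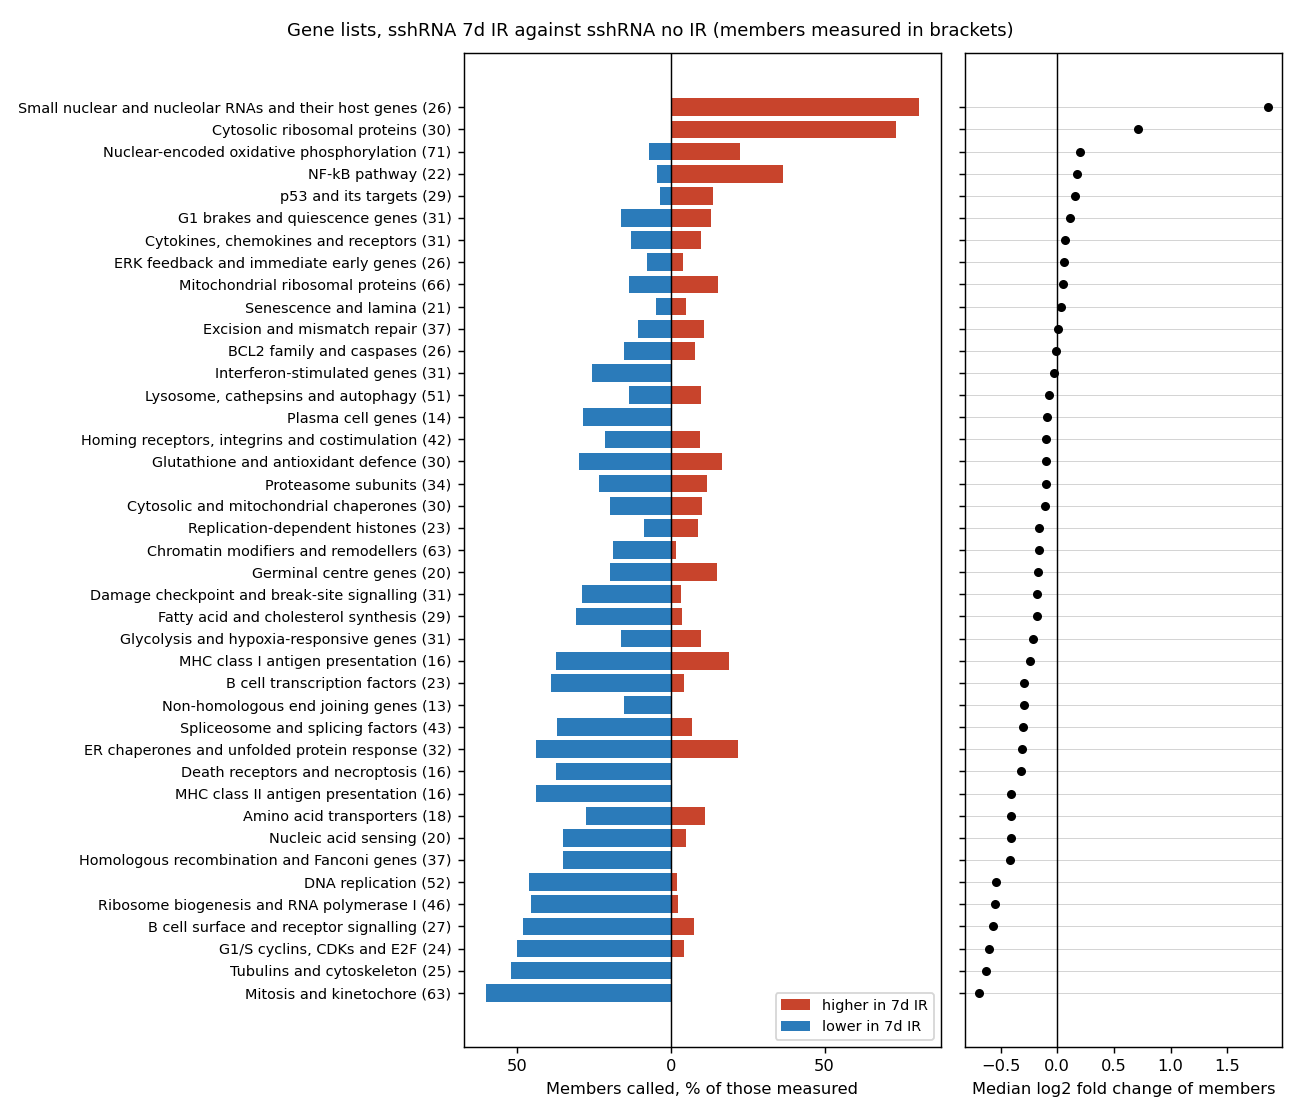
Members of each gene list called higher (red, right) or lower (blue, left) in sshRNA 7d IR than in sshRNA no IR, in percent of the members measured (left panel, number in brackets), and the median log2 fold change of all measured members (right panel). The mitosis list is at the foot with 60.3% lower and a median of -0.69, and ribosomal proteins stand near the top with 73.3% higher and a median of 0.71, as the values were deposited.

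Values at 1 day after 5 Gy lay between the other groups for some genes and not for others. The 1-day contrast shares the 3 sshRNA no IR arrays, so its values are given side by side only. At 1 day 347 genes were called higher and 146 lower. Plk1 read 13.84, 13.69 and 13.72 at 1 day, between both other groups, and Ebf1 10.98, 11.1 and 10.9, already below the untreated values. Rrm2, at 11.59, 11.94 and 11.56, overlapped the untreated values, and Tlr9, at 10.15, 10.36 and 10.21, lay below them and above the 7-day values. Mki67 stood higher at 1 day (15.95, 15.63 and 15.87) than without irradiation (14.96, 14.8 and 14.3), and lower at 7 days (13.04, 13.07 and 13.07). Ddit3 at 9.66, 8.65 and 9.51 lay between both groups, and Cd69 at 10.81, 9.66 and 10.5 had replicate 2 within the untreated range and the others between both groups.

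The other cell line, USFKD, gives the same contrast on arrays that share none with sshRNA. Its arrays carried a like shift, with medians of negative control rows of 5.15, 5.11 and 5.25 without irradiation and 5.64, 5.6 and 5.62 at 7 days. There 1641 of all 30098 genes were higher and 1426 lower at 7 days. Of the 2744 genes higher in sshRNA 1149 were among the 1641 called higher in USFKD and 5 were called lower there, and of the 2564 lower in sshRNA 1129 were among the 1426 called lower in USFKD and 1 was higher. The part of the like array shift in this overlap was not tested. The difference between the lines in the 7-day change was called for 616 genes (2.05%) in the positive and 321 (1.07%) in the negative direction, and 674 of these 937 genes were among those called in sshRNA. Over transcript clusters the count was 1366, and it fell to 761 without sshRNA no IR replicate 1 and to 588 without replicate 2 of that group.

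Several of the genes above changed less in USFKD, and the lines often differed before irradiation. Of 44 named genes whose difference in change was called, 26 had untreated group means more than 1.5-fold apart. The untreated arrays enter that difference, so the choice of genes itself favours such gaps, and the count was not set against all genes. The untreated gap was larger than the 7-day gap in 19 of the 44. Slc7a8 fell by 2.42 in sshRNA and by 0.47 in USFKD (difference 1.94 ± 0.15, adjusted p = 0.000177), Bank1 by 2.47 and 0.58 (1.89 ± 0.19, adjusted p = 0.000423), Fcgr2b by 1.87 and 0.32 (1.55 ± 0.16) and Ebf1 by 1.86 and 0.33 (1.53 ± 0.15). Adm rose by 2.4 in sshRNA against 0.11 in USFKD (-2.29 ± 0.3, adjusted p = 0.00219), and Cd69 by 2.47 against 0.43 (-2.04 ± 0.42, adjusted p = 0.0209). Before irradiation, Slc7a8 stood at 5.3, 5.37 and 5.34 in USFKD against 8.69, 8.48 and 8.43 in sshRNA, and Ebf1 at 10.14, 10.17 and 10.23, between the sshRNA values without irradiation and at 7 days. Adm stood at 11.33, 11.68 and 11.56 in untreated USFKD, where sshRNA stood at 7 days (11.37, 11.45 and 11.37). Bank1 started higher in USFKD (13.19, 13.07 and 12.93) than in sshRNA and Cd69 lower (9.33, 8.39 and 8.4). The part of these starting levels in the differences was not tested. For other genes a difference was not called: Rgs1 (2.4 and 2.22, difference -0.18 ± 0.27), Klhl24 (2.83 and 2.75), Ripk3 (-2.46 and -2.18), Tlr9 (-2.29 and -2.24), Btg1 (1.65 and 1.72) and Bcl2l11 (1.69 and 1.68). Cxcr4 rose by 1.97 in sshRNA and 3.51 in USFKD, a difference of 1.55 ± 0.5 that did not pass (adjusted p = 0.122). Of the lists, mitosis counted 38 lower genes in sshRNA and 32 in USFKD, and 0 of its 63 genes differed between the lines. The small nuclear and nucleolar RNA list differed at 12 of 26 genes and the ER list at 7 of 32. Over all genes the difference was called for 2.05% in the positive and 1.07% in the negative direction. All 4 U1 and all 5 U3 loci differed, with U3 medians of 3.76 in sshRNA and 1.95 in USFKD. Of the 70 loci of 5S ribosomal RNA 15 differed (medians 3.4 and 1.79). Usf2, the target of one of the shRNAs, rose in sshRNA from 9.32, 9.12 and 8.68 to 10.04, 9.62 and 10.15 (0.9 ± 0.16, adjusted p = 0.000541) and read -0.34 ± 0.16 in USFKD (difference -1.24 ± 0.22, adjusted p = 0.0115). Its rise in sshRNA was not called with the negative control medians equal (0.32), and Usf1 read 0.04 ± 0.08 in sshRNA.

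**Figure D5:**
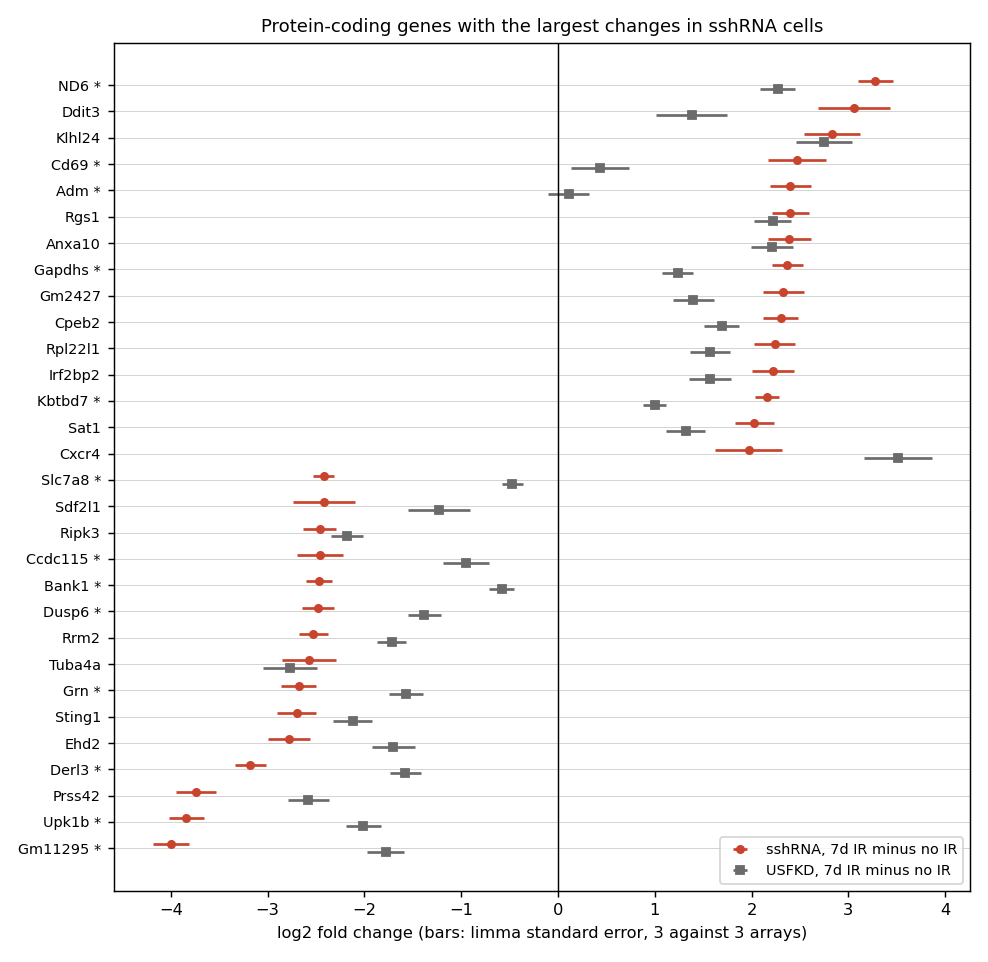
Log2 fold change from no IR to 7d IR of the 15 steepest increases and the 15 steepest decreases among protein-coding genes of sshRNA cells, in sshRNA (red circles) and USFKD (grey squares), with limma standard errors as bars (3 against 3 arrays). Asterisks mark genes whose difference between the lines was called, and since the genes were chosen for their size in sshRNA, a smaller value in USFKD is no test.

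By chromosome, the median log2 fold change per chromosome lay between 0.097 (chromosome X) and 0.144 (chromosome 1) over all genes, a span of 0.0471, and between -0.045 and 0.081 over genes above the dim limit, a span of 0.126.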

How the data were processed

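The deposited log2 values were used, which the authors made from 18 Affymetrix Mouse Transcriptome 1.0 arrays with Expression Console and RMA (background correction, quantile normalization and probe summary; versions not given in the sources used here). Values on one scale can thus shift with the whole array, and RNA was bound to RNeasy Plus columns, which retain short RNAs poorly, before whole-transcript labelling. R 4.3.3 with limma 3.58.1 (lmFit and eBayes) fitted a mean for each of 6 groups over all 72688 rows, with Benjamini-Hochberg adjustment over all rows (12 residual degrees of freedom). A call needed an adjusted p under 0.05 and a fold over 1.5. Scripts were tested on simulated data. A row with 1 symbol stood for a gene, the brightest cluster where there were several, and symbols were matched to the RefSeq table of GRCm38.p6 (22596 by Entrez number, 7710 by symbol, 330 by synonym, 2 by neither).

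Genes were chosen from a rule, of which not every gene is printed: the 15 largest changes in each direction, and up to 6 called members of each list in each direction beside chosen anchors. Members and lists were chosen with earlier results of these data known, and the protein-coding ranking, the families of small RNAs, further list members, the levels in the USFKD line and the ER stress response element were chosen after values were seen. Where a gene lay under the dim limit in one group, its fold is given as a bound against that limit. Alternatives were other scalings, filters, variance models, sample sets, a replicate block and leaving out single arrays. Trp53 is not analysed here.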

Additional observations from a re-analysis of the deposited data

Results flagged for a closer look

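Groups held 3 arrays, too few to test single arrays for standing apart. Negative control rows, which enter no comparison of genes, were higher at 7 days in 1207 cases. The 7-day change differed between the USFKD and sshRNA lines, by limma's test of the difference, at 1366 transcript clusters. Values below are log2 changes in USFKD minus those in sshRNA.

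Among 44 named genes listed here 26 had untreated group means more than 1.5-fold apart between the lines. The choice of genes favours such gaps, since the untreated arrays enter the difference. B cell genes that fell less in USFKD were Bank1 (1.89), Fcgr2b (1.55), Ebf1 (1.53) and Ikzf1 (0.71), Pax5 (0.86) fell in sshRNA and read 0.05 in USFKD, and Mef2c differed by 0.73. Among genes with the steepest decreases, Gm11295 (2.23), Slc7a8 (1.94), Upk1b (1.83), Derl3 (1.59), Grn (1.12) and Dusp6 (1.1) differed in the same direction. So did the metabolic and lysosomal genes Cat (1.45), Ctse (1.28), Elovl6 (1.2) and Tpp1 (1.07), and the ER genes Dnajb11 (1.22) and Pdia3 (1.01). Genes of cycle, repair and chromatin that fell less in USFKD were Ino80c (1.35), Pole2 (1.05), Rnf168 (1.01), Smc3 (0.91), Skp2 (0.91), Gen1 (0.91) and Exo1 (0.63). Gbp3 (0.82), Srsf1 (0.75), Tnfsf10 (0.67) and Mlkl (0.59) followed them.

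Genes that rose less in USFKD, or did not rise there, were Adm (-2.29), Cd69 (-2.04), Malat1 (-1.95), Rnu3b4 (-1.92), Sqstm1 (-1.25), Usf2 (-1.24), Nfkbia (-1.13), ND6 (-1.01), Derl1 (-0.97), Fcer2a (-0.87), Asns (-0.79) and Sel1l (-0.76). The presentation genes H2-D1 (-1.26), H2-K1 (-1.2) and H2-Aa (-1.02) differed in the same direction.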

How the results depend on the processing

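With bright clusters centred (every log2 fold change lower by 0.17), 4709 clusters and 1815 genes were called higher and 4783 clusters lower, under cyclic loess 4918 clusters were higher, and with the negative control medians equal 2202 clusters and 866 genes were higher and 15860 clusters and 9887 genes lower. Tested against a fold of 1.5 itself, 2106 clusters and 873 genes were higher, 976 clusters and 828 genes lower, and 328 negative control rows were called in place of 1238. The difference between the lines was called at 639 clusters on the 12 arrays of its own groups. Chromosome medians spanned 0.126 over genes above the dim limit. Leaving out single arrays gave 6925 to 7878 clusters and 2549 to 2863 genes higher, 2910 to 3248 clusters and 2377 to 2610 genes lower, 892 to 1166 negative control rows called and 588 to 1382 clusters for the difference between the lines (761 without sshRNA no IR replicate 1, 588 without replicate 2). None of the 235 named genes tested in these settings changed sign while called. Calls ended when single arrays were left out for Chac1 (0.65 to 0.84 without each array but 7d IR replicate 1), Cdc7 (0.51 to 0.65 without each but 7d IR replicate 3), Mir16-2 (0.93 to 1.2, same arrays), Spib (-1.11 to -0.93, same arrays), H2bc12 (-1 to -0.7 without each but 7d IR replicate 1), H1f1 (-0.9 to -0.71 without each but no IR replicate 1), Fas (-0.63 to -0.38 without no IR replicates 2 or 3 or 7d IR replicate 3), H1f2 (0.68 to 0.72 without no IR replicate 2 or 7d IR replicates 1 or 3), Cd40 (0.55 to 0.58 without no IR replicate 1 or 7d IR replicates 2 or 3), Rnaseh2a (0.55 to 0.58 without no IR replicate 3 or 7d IR replicates 2 or 3), Atf4 (0.57 without no IR replicate 1, 0.55 without 7d IR replicate 3), Psmb10 (-0.96 without no IR replicate 2, -0.91 without 7d IR replicate 3), Mirlet7i (0.57 and 0.47, same arrays), Rbm39 (0.56) and Tap2 (-0.56) without 7d IR replicate 1, Sel1l (0.58) without 7d IR replicate 2 and Cks1b (0.55) without 7d IR replicate 3. Averaging all clusters of a gene ended the calls of Fas (-0.17) and Rb1 (0.15). Same-numbered arrays deviated together only in part (r = 0.17, -0.021 and 0.116 across bright clusters), so the numbers do not pair the samples. With the replicate block 2723 genes were higher and 2556 lower, 7575 clusters higher and 3152 lower, 1231 negative control rows and 1190 clusters for the difference between the lines were called, and of the named genes Chac1 and H1f1 lost their calls. With 3 arrays a group, small changes lie within the spread, and dim rows have only a bound.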
